A study of Mus musculus with 9 samples.

Results

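The major histocompatibility complex (MHC) genes of the mouse cochlea were followed through age. The members were the rows of the count table whose symbol starts with H2-, the mouse name of the complex, together with Cd74, Ciita, B2m and Nlrc5. They were 37 of 32066 genes, 11 of class II and 26 of class I. RNA-seq was done on cochlear tissue of the C57BL/6J strain at 3 ages, Ctrl (about 2 months), Age8 (8 months) and Age12 (12 months), in a model of age-related sensorineural hearing loss (SNHL), with 3 libraries per group and 9 in all. The age of Ctrl comes from the study's methods, the labels name no transgene and no treatment, and both sexes were bred. The labels do not say whether a library is 1 animal or a pool, so p-values measure only the spread between these libraries. Each library held 26473126 to 37935875 reads on genes.

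MHC class II molecules show peptides from material taken up by a cell to CD4 T cells, and are made mostly by dendritic cells, macrophages and B cells. Each is an alpha and a beta chain, folded on the invariant chain (Cd74) and loaded with peptide under the control of H2-DM and H2-DO. MHC class I molecules, a heavy chain with beta-2-microglobulin (B2m), are made by nearly all cells and show peptides of the cell's own proteins to CD8 T cells. In the cochlea, resident macrophages of the lateral wall, the spiral ganglion and the sensory epithelium are known to carry class II. Transcription of class II depends on Ciita and that of class I in part on Nlrc5, related coactivators that act through factors bound to X and Y boxes of the promoters. C57BL/6 mice lack a working E alpha chain, so that the product of H2-Eb1 is not shown at the cell surface.

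The H2 genes lie on chromosome 17 of GRCm39, from H2-K2 (start 34193607) to H2-M2 (end 37794472). Ciita is on chromosome 16 (10297923 to 10347694), B2m on chromosome 2 (121977957 to 121983594) and Nlrc5 on chromosome 8 (95160984 to 95253900). The class II chain genes are neighbours, H2-Ab1 on the plus strand (34476663 to 34488393), H2-Aa on the minus strand (34493404 to 34506798) and H2-Eb1 on the plus strand (34504236 to 34535648). The annotated spans of H2-Aa and H2-Eb1 overlap by 2563 bases on opposite strands. The libraries were strand-specific, but the use of the strand in counting is not given in the sources used here, so reads in that overlap may be assigned to either gene.

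Promoters are shown because class II and class I genes are read through partly different elements. The 150 bases before the start of the canonical GENCODE M39 transcript on GRCm39 are printed 5′ to 3′ on the strand of the gene. Capitals mark the X box (searched as ACNGATGA), the Y box (GATTGG) and the interferon response element (GTTTCACTT), on either strand. These letters were chosen after the promoters had been read. H2-Ab1 (chr17:34482033-34482182, plus strand), H2-Eb1 (chr17:34524663-34524812, plus strand), H2-DMa (chr17:34354410-34354559, plus strand) and H2-Aa (chr17:34506798-34506947, minus strand) stand for class II. H2-K1 (chr17:34219322-34219471, minus strand) and H2-Q4 (chr17:35598436-35598585, plus strand) stand for class I.
H2-Ab1: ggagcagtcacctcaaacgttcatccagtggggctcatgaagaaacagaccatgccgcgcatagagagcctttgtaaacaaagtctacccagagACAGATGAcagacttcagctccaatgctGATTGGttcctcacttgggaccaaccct
H2-Eb1: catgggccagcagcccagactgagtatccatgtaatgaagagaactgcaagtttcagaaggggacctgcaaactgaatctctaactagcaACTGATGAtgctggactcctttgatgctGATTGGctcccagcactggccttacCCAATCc
H2-DMa: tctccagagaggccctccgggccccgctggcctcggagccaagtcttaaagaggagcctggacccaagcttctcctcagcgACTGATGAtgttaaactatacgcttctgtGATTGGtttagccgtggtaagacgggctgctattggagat
H2-Aa: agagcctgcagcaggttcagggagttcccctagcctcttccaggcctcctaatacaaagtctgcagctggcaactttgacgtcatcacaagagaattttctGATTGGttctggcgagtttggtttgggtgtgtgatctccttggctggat
H2-K1: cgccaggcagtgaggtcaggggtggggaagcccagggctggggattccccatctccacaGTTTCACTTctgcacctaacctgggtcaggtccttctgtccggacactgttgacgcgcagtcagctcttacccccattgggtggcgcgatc
H2-Q4: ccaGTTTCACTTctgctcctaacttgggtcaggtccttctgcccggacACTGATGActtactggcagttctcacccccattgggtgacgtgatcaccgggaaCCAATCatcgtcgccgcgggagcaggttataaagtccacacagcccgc

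In the promoters of H2-Ab1 and H2-Eb1 the Y box starts 28 bases after the start of the X box, and in those of H2-DMa and H2-DMb2 29 bases after it. Over 250 bases before the start, 5 of 16074 protein-coding genes that were tested hold the boxes at that spacing, and 4 of them are these members. The spacing was taken from these 4 promoters, so their match was fixed in advance. An X box was found before 5 of the 11 class II and 7 of the 26 class I genes, against 1.52% of all 16074 promoters. A Y box was found before 7 class II and 10 class I genes, against 17.02% of all. The interferon response element preceded 10 class I genes and 0 class II genes, against 0.348% of all. In H2-Q4, H2-Q5, H2-Q6 and H2-Q7 the X and Y boxes start 53 or 54 bases apart. These are matches of letters only, and promoters of neighbouring paralogs share sequence.

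The libraries differed in ways that age does not name. Age8 replicate 1 stood apart: the summed level of 10 hair cell markers was 12.9 CPM (counts scaled by the library total and its TMM factor) there and 218 to 426 CPM in the other 8 libraries (10.8 and 22.2 to 60.4 without Calb2, which carried most of the sum), and that of 14 skeletal muscle markers was 297568 CPM. Muscle markers were also high in the other 2 Age8 libraries (105208 and 176779 CPM), above all Ctrl (10853 to 72188) and Age12 (62800 to 73336) libraries. Gland markers summed to 101234 to 106379 CPM in Ctrl, 937 to 111709 in Age8 and 456 to 42216 in Age12. Xist, transcribed from the inactive X chromosome, stood at 219 to 240 CPM in Ctrl, 0.34 to 0.70 in Age8 and 0.39, 41.1 and 38.4 in the Age12 libraries. Ddx3y, a Y-linked gene, had 0.09 to 0.38 CPM in Ctrl, 25.0 to 47.2 in Age8 and 23.9, 36.9 and 37.3 in Age12. Age12 replicates 2 and 3 thus held RNA of both genes, and whether they pool animals was not tested. Sex and age cannot be told apart. For 68.5% of 19254 genes in the Ctrl group, 75.3% in Age8 and 38.1% in Age12, the third replicate was intermediate to the other two. Over genes of at least 50 counts on average, the third replicate differed from the closest weighted mean of replicates 1 and 2 by a median of 0.0742 (Ctrl) and 0.0745 (Age8) on the log2 scale, and from either of them by 0.191 to 0.237 and 0.378 to 0.415. The closest mean held 54% and 52% of replicate 1. In Age12, replicates 2 and 3 differed by a median of 0.0842, and each from replicate 1 by 0.162. Whether the third replicates are separate samples was not tested, and every SD and p-value with n = 3 takes them as such. With replicates 1 and 2 of each group alone, edgeR called 0 of 19342 genes in every comparison, with 2190 genes for Age12 vs Ctrl, 3264 for Age8 vs Ctrl and 2498 for Age12 vs Age8 at an unadjusted p under 0.05. TMM factors were lowest for Age8 replicate 1 (0.591) and highest for Age12 replicate 1 (1.23).

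Levels of different genes are compared as FPKM (fragments scaled by the gene's exon length and by the library's depth). Averaged over the 9 libraries, B2m was highest at 278 FPKM, followed by H2-D1 (86.4), Cd74 (86.2) and H2-K1 (67.8). The class II chains H2-Eb1 (23.6), H2-Ab1 (16.9) and H2-Aa (11.97) followed, with H2-T23 (17.4) among them and H2-T22 (9.49) and H2-Q4 (8.80) below them. The other 27 members were below 5 FPKM, and the coactivators were low, Ciita at 0.10 and Nlrc5 at 0.31. Neighbours in this order such as H2-D1 and Cd74 had ranges over the libraries that overlap, 62.2 to 119 and 52.9 to 163 FPKM.

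Genes for the class II chains and the invariant chain were lower in the aged cochlea. H2-Ab1, the beta chain of the A molecule, had 91.9, 67.2 and 78.9 CPM in the Ctrl libraries, 53.3, 30.2 and 39.4 in Age8, and 27.5, 29.1 and 28.9 in Age12. Its Ctrl libraries lay above all 6 aged libraries. It fell by 0.96 on the log2 scale in Age8 vs Ctrl (SE 0.206, edgeR quasi-likelihood test, adjusted p = 0.0130), and in Age12 vs Ctrl it fell by 1.48 (SE 0.209, edgeR adjusted p = 0.00867). In bulk tissue, fewer cells of a type and less RNA per cell cannot be told apart.

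H2-Aa, the alpha chain of the same molecule, had 93.6, 63.9 and 82.5 CPM in Ctrl, 52.8, 32.7 and 42.4 in Age8, and 29.6, 33.0 and 36.1 in Age12. It fell by 0.91 in Age8 vs Ctrl (SE 0.204, edgeR adjusted p = 0.0147), and in Age12 vs Ctrl it fell by 1.28 (SE 0.206, edgeR adjusted p = 0.0114). Ctrl again stood above both aged groups, while Age8 and Age12 overlapped. H2-Eb1, the E beta chain, had 91.7, 68.6 and 77.7 CPM in Ctrl, 52.7, 35.8 and 41.3 in Age8, and 32.7, 35.9 and 34.3 in Age12. It fell by 0.88 in Age8 vs Ctrl (SE 0.166, edgeR adjusted p = 0.00835), and in Age12 vs Ctrl it fell by 1.21 (SE 0.167, edgeR adjusted p = 0.00813).

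Cd74, the invariant chain that guides class II to the endosome, had 288, 245 and 257 CPM in Ctrl, 172, 104 and 131 in Age8, and 83.4, 102 and 108 in Age12. The Ctrl libraries did not overlap either aged group. It fell by 0.96 in Age8 vs Ctrl (SE 0.199, edgeR adjusted p = 0.0114), and in Age12 vs Ctrl it fell by 1.43 (SE 0.201, edgeR adjusted p = 0.00862). The group means ± SD (n = 3) were 263 ± 22.3 CPM for Ctrl, 136 ± 34.6 for Age8 and 97.8 ± 12.7 for Age12.

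Between Age8 and Age12 the direction of these genes depended on the scaling. The log2 fold change of Age12 vs Age8 was -0.52 for H2-Ab1, -0.47 for Cd74, -0.37 for H2-Aa and -0.33 for H2-Eb1 with TMM factors (edgeR adjusted p from 0.0928 to 0.192), but 0.08, 0.12, 0.22 and 0.24 with library totals and 0.05, 0.09, 0.17 and 0.21 on log2(FPKM + 1). Without TMM the median of all genes itself moved to 0.460 in that comparison, from -0.077, and to -0.482 in Age8 vs Ctrl, from -0.117. In FPKM the Age8 and Age12 libraries were close: H2-Ab1 was at 10.8, 10.8 and 11.1 in Age8 and 11.4, 11.3 and 11.3 in Age12, against 34.0, 22.8 and 28.3 in Ctrl. All 3 scalings placed the 4 genes below Ctrl in both aged groups.

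**Figure D1:**
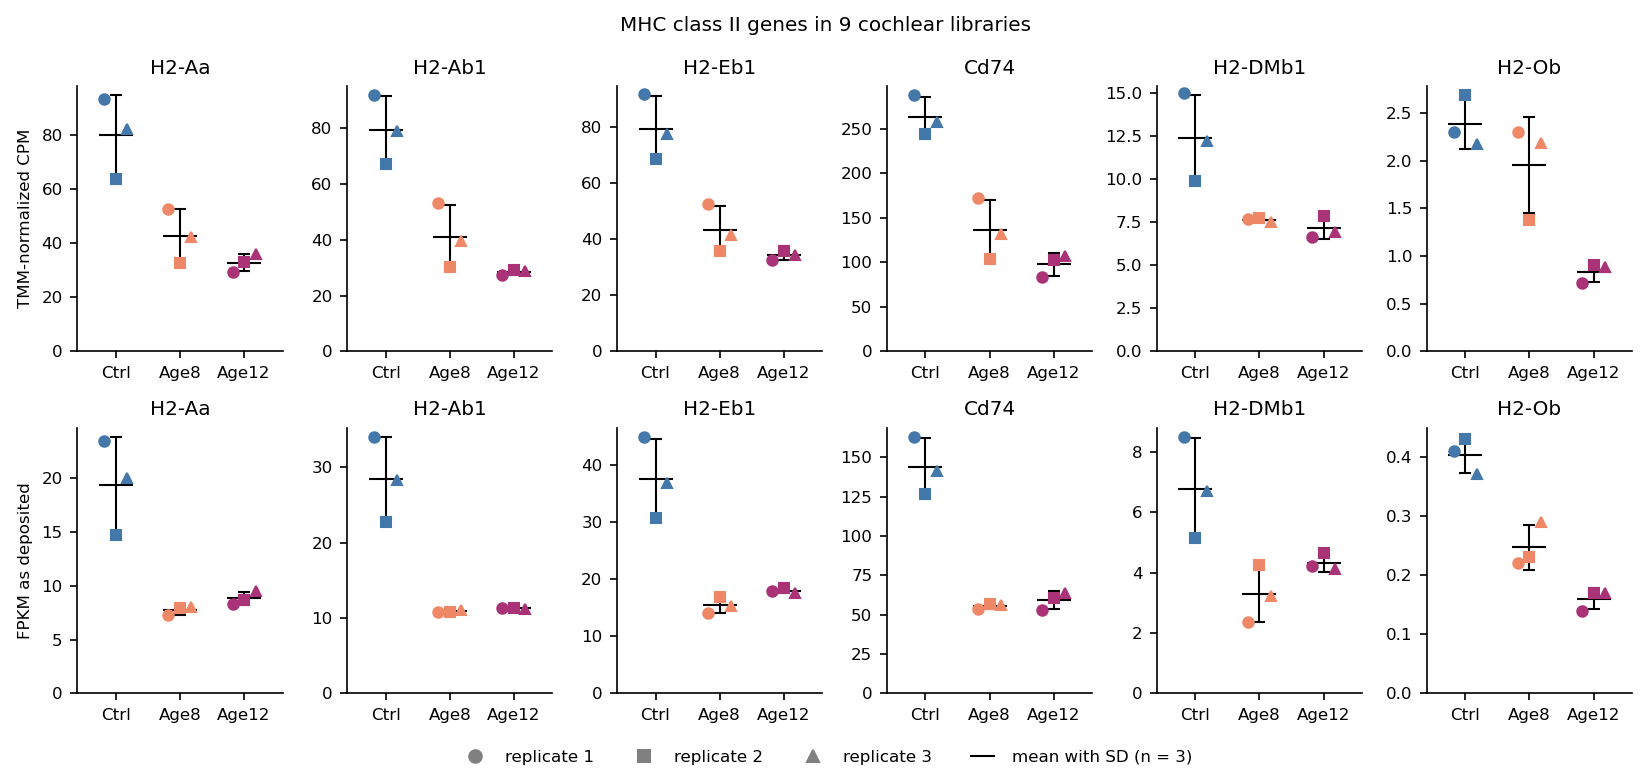
Level of 6 class II genes in each library, as TMM-normalized CPM (upper row) and deposited FPKM (lower row), by group. Symbols are libraries, and the black bar is the mean with its SD (n = 3). In H2-Aa, H2-Ab1, H2-Eb1, Cd74 and H2-DMb1 the Ctrl libraries lie above all aged libraries on both scales, while Age8 against Age12 changes order between the scales, and in H2-Ob Age8 overlaps Ctrl in CPM.

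The Age8 calls held without the library that stood apart, but not without replicate 3. Without Age8 replicate 1 the log2 fold changes in Age8 vs Ctrl were -1.13 for H2-Ab1, -1.11 for Cd74, -1.04 for H2-Aa and -0.99 for H2-Eb1, with edgeR adjusted p from 0.00474 to 0.00950. Without Age8 replicate 3 they were -0.84, -0.84, -0.82 and -0.76, and none passed (edgeR adjusted p from 0.0684 to 0.0891). Age12 vs Ctrl passed for these 4 genes whichever single library was left out, but with the gland marker score as a covariate their log2 fold changes were -1.18 (H2-Ab1), -1.02 (Cd74), -1.02 (H2-Eb1) and -0.99 (H2-Aa), with edgeR adjusted p of 0.137 to 0.158, in a fit that called 9 of 19254 genes in that comparison. With replicates 1 and 2 of each group alone they were -0.93 (H2-Ab1), -0.95 (Cd74), -0.88 (H2-Aa) and -0.86 (H2-Eb1) in Age8 vs Ctrl, and -1.49, -1.52, -1.33 and -1.22 in Age12 vs Ctrl, and none passed (edgeR adjusted p from 0.270 to 0.431).

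The genes for peptide loading and editing moved less evenly. H2-DMb1, the beta chain of the H2-DM exchange factor, had 15.0, 9.91 and 12.2 CPM in Ctrl, 7.67, 7.75 and 7.54 in Age8, and 6.65, 7.87 and 6.93 in Age12. It fell by 0.69 in Age8 vs Ctrl (SE 0.170, edgeR adjusted p = 0.0198), and in Age12 vs Ctrl it fell by 0.79 (SE 0.169, edgeR adjusted p = 0.0218). The Age8 call was lost without Ctrl replicate 3 or Age8 replicate 3 (edgeR adjusted p = 0.0509 and 0.102). The Age12 call was lost without either of these or any Age12 library (edgeR adjusted p from 0.0560 to 0.0760), with library totals (edgeR adjusted p = 0.146) and on log2(FPKM + 1) (limma adjusted p = 0.149). Its partner chain H2-DMa was at 8.14 to 9.89 CPM in Ctrl, 6.22 to 7.50 in Age8 and 6.13 to 7.58 in Age12, with log2 fold changes of -0.35 and -0.37 against Ctrl that did not pass (edgeR adjusted p = 0.130 and 0.142). H2-DMa spans part of Brd2 on the other strand, 3231 bases of a gene with 31615 counts.

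H2-Ob, the beta chain of H2-DO, which restrains H2-DM and is best known from B cells, had 2.30, 2.68 and 2.18 CPM in Ctrl, 2.30, 1.37 and 2.18 in Age8, and 0.71, 0.90 and 0.89 in Age12. The Age12 libraries lay below the other 6, while Ctrl and Age8 overlapped. It fell by 1.51 in Age12 vs Ctrl (SE 0.260, edgeR adjusted p = 0.0133) and by 1.21 in Age12 vs Age8 (SE 0.262, edgeR adjusted p = 0.0190), while the Age8 vs Ctrl value was -0.30 (edgeR adjusted p = 0.417). In FPKM its Age8 libraries (0.22 to 0.29) lay below Ctrl (0.37 to 0.43), and Age8 vs Ctrl passed on log2(FPKM + 1) (-0.17, limma adjusted p = 0.0291) and with library totals (-0.73, edgeR adjusted p = 0.0484). The Age12 vs Age8 call was lost without Age8 replicate 3 or any Age12 library (edgeR adjusted p from 0.0627 to 0.0710), on log2(FPKM + 1) (limma adjusted p = 0.138) and with library totals (edgeR adjusted p = 0.0866). H2-DMb2, another H2-DM beta chain, also fell in Age12 vs Age8, by 1.76 (SE 0.534, edgeR adjusted p = 0.0466), on 8 to 24 counts per Age12 library and 9 to 57 per Age8 library. That call was lost without any library but Age8 replicate 1, with library totals (edgeR adjusted p = 0.140) and on log2(FPKM + 1) (limma adjusted p = 0.264). H2-Oa, the alpha chain of H2-DO, had 1 to 31 counts per library and was called in no comparison. H2-Eb2 had at most 7 counts in any library and was not tested.

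Ciita, the coactivator of class II, was low, and it also fell in Age12 vs Ctrl. Its counts were 67, 31 and 75 in Ctrl, 17, 30 and 26 in Age8, and 15, 26 and 27 in Age12. In CPM these were 1.83, 0.93 and 2.15, then 1.09, 0.94 and 0.93, then 0.37, 0.67 and 0.62, so Ctrl and Age8 overlapped and Age12 lay below both. It fell by 1.57 in Age12 vs Ctrl (SE 0.369, edgeR adjusted p = 0.0288), and its Age8 vs Ctrl value was -0.74 (SE 0.366, edgeR adjusted p = 0.163). The call was lost without any library but Ctrl replicate 2 and Age8 replicates 1 and 2 (edgeR adjusted p from 0.0641 to 0.0890), with library totals (edgeR adjusted p = 0.0563) and on log2(FPKM + 1) (limma adjusted p = 0.0699). Dexi, on the opposite strand, shares 29935 bases with Ciita and had 10658 counts against 314.

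Of the 10 class II genes tested, 5 were lower and 0 higher in Age8 vs Ctrl (H2-Eb1, H2-Ab1, H2-Aa, H2-DMb1 and Cd74), where 28.3% of all 19254 genes were called and 13% were called lower. In Age12 vs Ctrl 7 were lower, those 5 with Ciita and H2-Ob, and 0 higher, where 15.4% of all genes were called and 11.2% lower. In Age12 vs Age8 2 were lower, H2-Ob and H2-DMb2, and 0 higher, where 23.9% of all genes were called and 14% lower. The median log2 fold changes of the 10 genes were -0.72, -1.40 and -0.50 in that order, beside -0.117, -0.006 and -0.077 for all genes. The CPM of all 10 did not overlap between Age12 and Ctrl, as for 53.2% of all genes, and 6 of 10 did not between Age8 and Ctrl, as for 43.1%. The counts of 5 and 7 became 0 when the gland score was a covariate (5 and 6 genes at an unadjusted p under 0.05, edgeR), where 4122 and 9 of all 19254 genes were called, against 5457 and 2973 without it. The count of 5 also became 0 with the muscle score (2 genes unadjusted), where 319 of all genes were called, and without Age8 replicate 3 (5 genes), where 2531 of 19795 were. With the muscle score the Age8 vs Ctrl values were -1.05 for Cd74, -0.94 for H2-Ab1, -0.77 for H2-Eb1, -0.77 for H2-Aa and -0.22 for H2-DMb1. That score kept 5 of the 7 calls in Age12 vs Ctrl and 0 of the 2 in Age12 vs Age8.

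**Figure D2:**
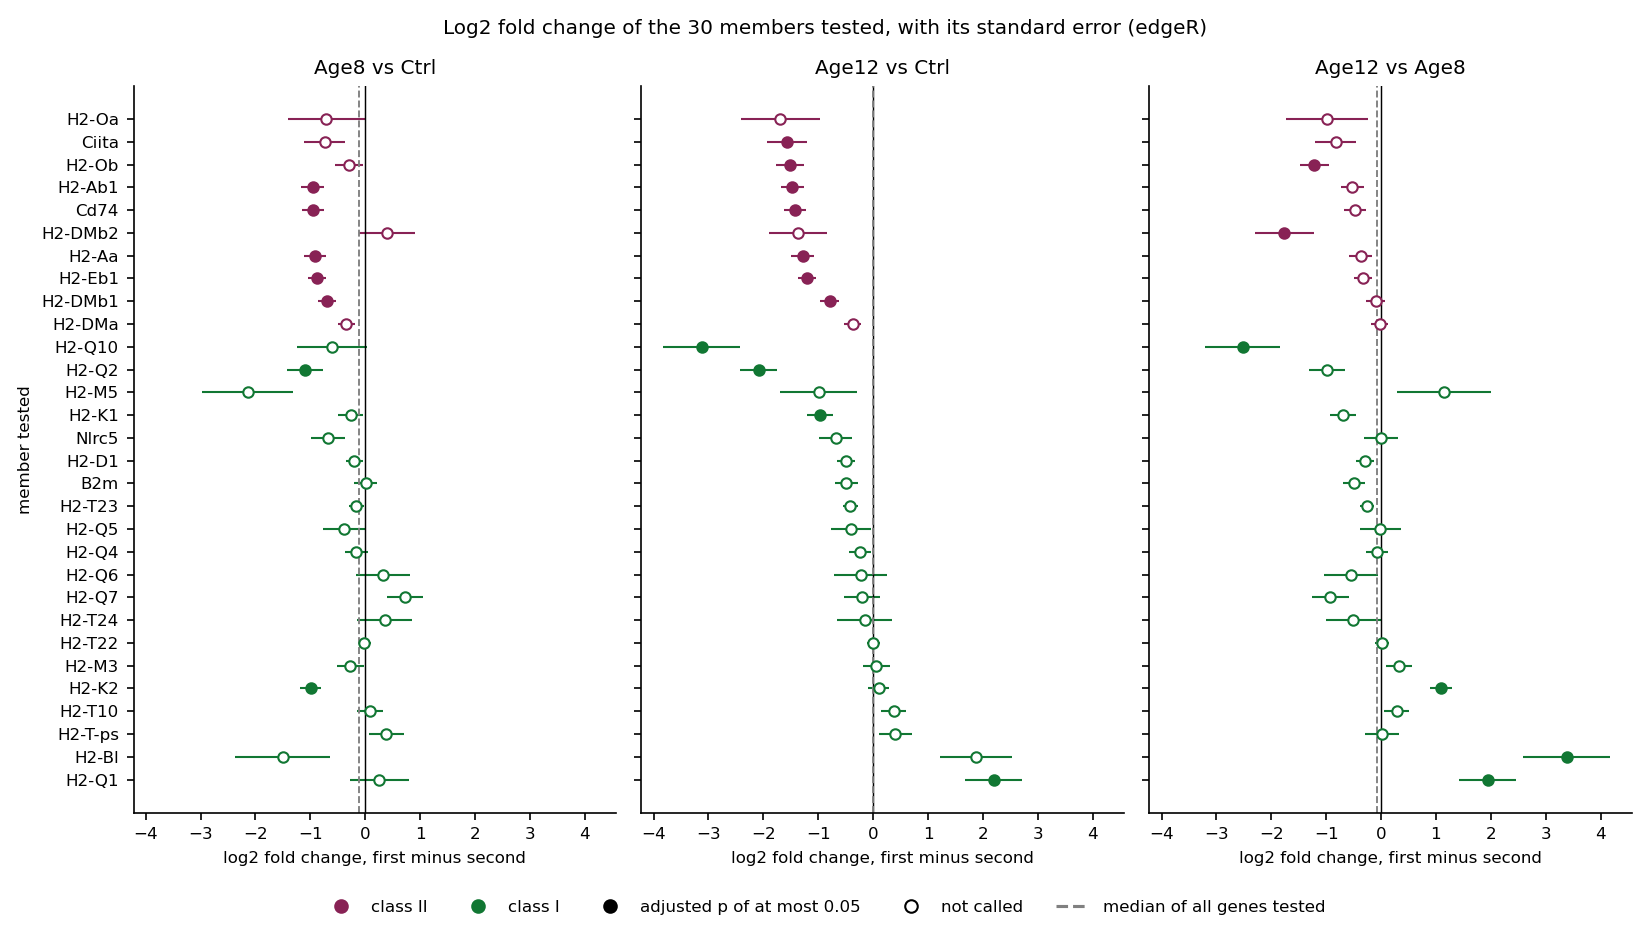
Log2 fold change of the 30 members tested, with its standard error, in the 3 comparisons (edgeR, TMM factors). Filled symbols passed an adjusted p of 0.05, purple is class II and green class I, and the dashed line is the median of all genes tested. Class II genes lie left of 0 in Age12 vs Ctrl, whereas class I genes lie on both sides.

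Class I genes were called in both directions, at shares of 10%, 20% and 20% beside 28.3%, 15.4% and 23.9% of all genes. Of the 20 tested, 2 were lower and 0 higher in Age8 vs Ctrl, H2-K2 and H2-Q2. In Age12 vs Ctrl H2-K1, H2-Q10 and H2-Q2 were lower and H2-Q1 higher, and in Age12 vs Age8 H2-Q10 was lower and H2-K2, H2-Q1 and H2-Bl higher. Genes higher in Age12 were 4.28% of all genes against Ctrl and 9.86% against Age8. The medians were -0.18, -0.23 and -0.05 on the log2 scale.

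Among the classical heavy chains, H2-K1 was lower at 12 months. It had 325, 269 and 302 CPM in Ctrl, 332, 181 and 230 in Age8, and 126, 165 and 169 in Age12. Age12 lay below both other groups, which overlapped each other. H2-K1 fell by 0.96 in Age12 vs Ctrl (SE 0.234, edgeR adjusted p = 0.0315), and was -0.27 in Age8 vs Ctrl (SE 0.232, edgeR adjusted p = 0.423). In FPKM its Age8 libraries, at 58.9, 56.8 and 56.5, also lay below the Ctrl libraries, at 105, 79.8 and 94.6, and Age8 vs Ctrl passed on log2(FPKM + 1) (limma adjusted p = 0.0136). The Age12 call was lost without Ctrl replicate 1 or 3, without Age8 replicate 3 and without each Age12 library in turn (edgeR adjusted p from 0.0507 to 0.0799).

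H2-D1, the other classical heavy chain, had 322, 278 and 290 CPM in Ctrl, 308, 224 and 247 in Age8, and 183, 222 and 228 in Age12. Its log2 fold change in Age12 vs Ctrl was -0.49 (SE 0.162, edgeR adjusted p = 0.0753), so that it did not pass although the groups did not overlap. B2m, the common light chain, had 386, 212 and 311 CPM in Ctrl, 320, 288 and 305 in Age8, and 204, 223 and 221 in Age12. Its Ctrl libraries overlapped both aged groups, and Age12 vs Ctrl was -0.49 (SE 0.207, edgeR adjusted p = 0.144). Age8 vs Ctrl was 0.01 for B2m (edgeR adjusted p = 0.986) and -0.20 for H2-D1 (edgeR adjusted p = 0.403). In FPKM the Age8 libraries of H2-D1 (62.2 to 79.9) lay below Ctrl (94.0 to 119), and Age8 vs Ctrl passed on log2(FPKM + 1) (-0.58, limma adjusted p = 0.0269) and with library totals (-0.63, edgeR adjusted p = 0.0203).

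**Figure D3:**
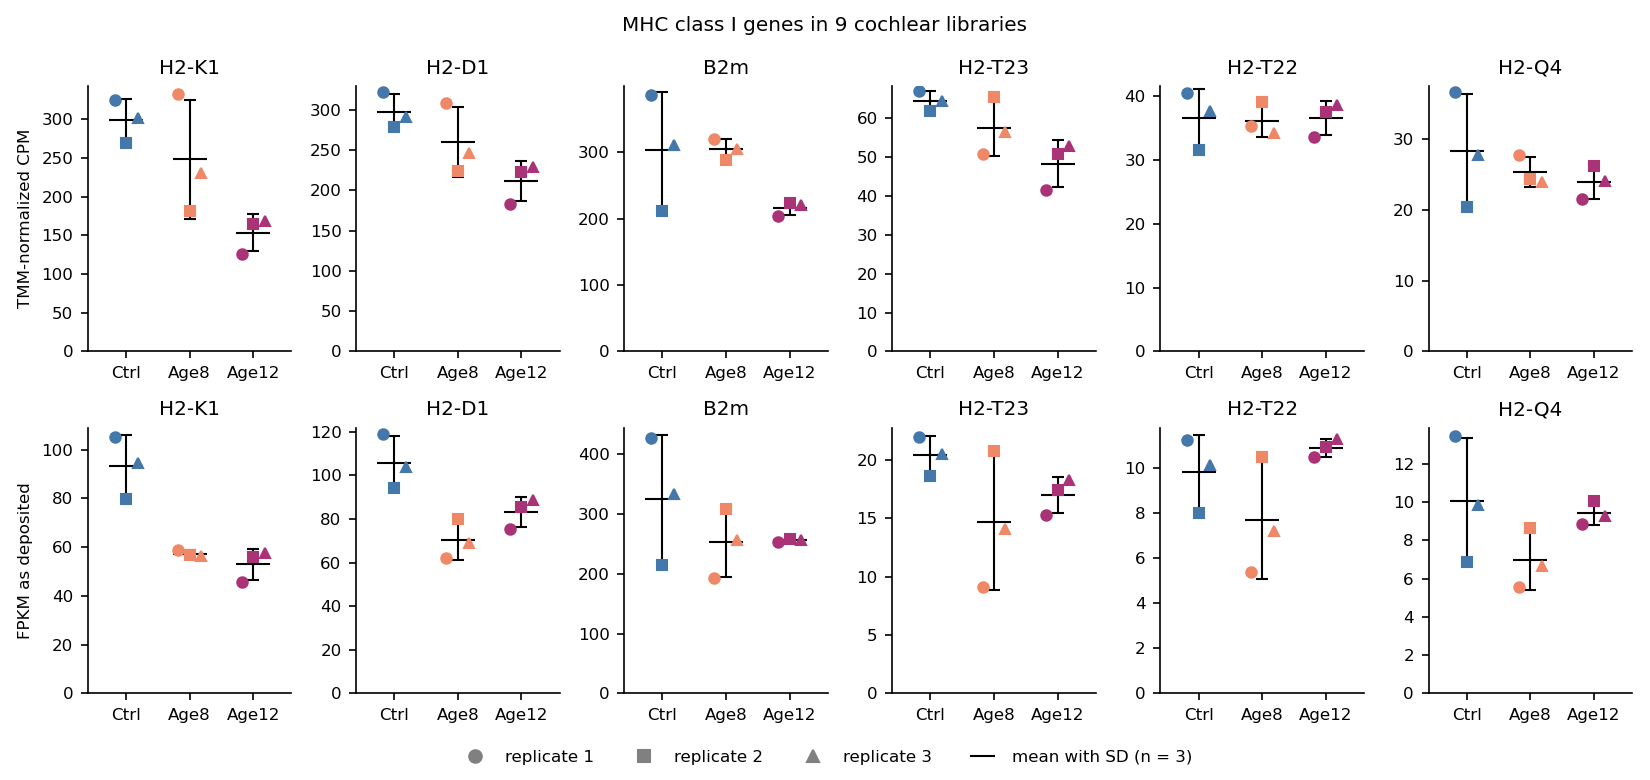
Level of 6 class I genes in each library, as TMM-normalized CPM (upper row) and deposited FPKM (lower row), by group. Symbols are libraries, and the black bar is the mean with its SD (n = 3). Age12 lies below Ctrl for H2-K1, H2-D1 and H2-T23 on both scales, while in B2m, H2-T22 and H2-Q4 both aged groups overlap Ctrl.

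Of the non-classical genes above 5 FPKM, H2-T23, which encodes the Qa-1 molecule read by NK cell receptors, had 66.9, 61.8 and 64.3 CPM in Ctrl, 50.8, 65.4 and 56.4 in Age8, and 41.4, 50.7 and 52.8 in Age12. Its log2 fold change in Age12 vs Ctrl was -0.42 (SE 0.133, edgeR adjusted p = 0.0694). H2-T22, a ligand of some gamma delta T cells, stayed between 31.5 and 40.5 CPM in the 9 libraries. Its log2 fold changes against Ctrl were -0.02 at 8 months and 0.00 at 12 months, with SE 0.121 for each, and their sign changed with the scaling. H2-Q4 lay between 20.4 and 36.7 CPM, with -0.16 (SE 0.202) and -0.24 (SE 0.202) against Ctrl, and both groups overlapped Ctrl. H2-T23, H2-T22 and H2-T24 overlap the antisense RNA A930015D03Rik, which had 681 counts in all.

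Nlrc5, the coactivator of class I, had 5.77, 2.38 and 3.50 CPM in Ctrl, 2.43, 2.41 and 2.43 in Age8, and 2.36, 2.42 and 2.49 in Age12. The aged libraries were close to each other and to the lowest Ctrl library. Neither difference from Ctrl passed (-0.68, SE 0.306 at 8 months and -0.68, SE 0.302 at 12 months, edgeR adjusted p = 0.129 and 0.159).

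The class I genes that passed besides H2-K1 were low ones. H2-Q10, a secreted class I molecule best known from liver, had 24.8, 9.19 and 17.6 CPM in Ctrl, 22.3, 3.06 and 8.86 in Age8, and 2.45, 1.78 and 1.66 in Age12. It fell by 3.13 in Age12 vs Ctrl (SE 0.695, edgeR adjusted p = 0.0245) and by 2.52 in Age12 vs Age8 (SE 0.683, edgeR adjusted p = 0.0339). The Age12 vs Ctrl call was lost without Ctrl replicate 1 or 3, Age8 replicate 3 or any Age12 library (edgeR adjusted p from 0.0557 to 0.0805), and that in Age12 vs Age8 without any library but Ctrl replicates 1 and 2 and Age8 replicate 2, with a value of -1.66 without Age8 replicate 1 (edgeR adjusted p = 0.0599). That call was also lost on log2(FPKM + 1) (-0.75, limma adjusted p = 0.192) and with library totals (-1.75, edgeR adjusted p = 0.0598). H2-Q2 fell by 1.10 in Age8 vs Ctrl (SE 0.324, edgeR adjusted p = 0.0373), and in Age12 vs Ctrl it fell by 2.09 (SE 0.332, edgeR adjusted p = 0.0113), from 3.56 to 4.43 CPM in Ctrl to 1.19 to 2.49 in Age8 and 0.64 to 1.11 in Age12. The H2-Q2 call in Age8 was lost without Ctrl replicate 1 or 3 or Age8 replicate 2 or 3 (edgeR adjusted p from 0.0630 to 0.140). With the gland score both H2-Q2 calls were lost, at -0.49 in Age8 and -1.36 in Age12 (edgeR adjusted p = 0.327 and 0.144). That score also took H2-K1 to -0.46, H2-Q1 to 1.34 and H2-Ob to -0.95 in Age12 vs Ctrl (edgeR adjusted p = 0.371, 0.308 and 0.181). The H2-Q10 call was lost there too, as 0 class I genes were called in that fit. The muscle score took H2-Q1 in Age12 vs Age8 to 1.14 (edgeR adjusted p = 0.164). With the muscle score, 2 of the 4 class I calls in Age12 vs Ctrl and 1 of the 4 in Age12 vs Age8 were kept.

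Moving the other way, H2-Q1 had 30, 10 and 16 counts in Ctrl, 3, 27 and 22 in Age8, and 108, 71 and 125 in Age12. It rose by 2.201 in Age12 vs Ctrl (SE 0.518, edgeR adjusted p = 0.0287) and by 1.94 in Age12 vs Age8 (SE 0.519, edgeR adjusted p = 0.0327). The first was lost with library totals (edgeR adjusted p = 0.0525) and both were lost without Ctrl replicate 3, Age8 replicate 3 or any Age12 library, the first also without Ctrl replicate 2 (edgeR adjusted p from 0.0577 to 0.115). H2-Bl had 2, 11 and 10 counts in Ctrl, 0, 5 and 1 in Age8, and 26, 37 and 39 in Age12, and rose by 3.38 in Age12 vs Age8 (SE 0.790, edgeR adjusted p = 0.0232). With so few counts in Age8 the size of this change depends on the fit, and the call was lost without Age8 replicate 3 or any Age12 library (edgeR adjusted p from 0.0570 to 0.0865).

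H2-K2, annotated as a long non-coding RNA, had 5.19, 6.96 and 6.13 CPM in Ctrl, 2.37, 3.37 and 3.39 in Age8, and 6.62, 6.27 and 6.70 in Age12, so that Age8 alone was low. It fell by 0.99 in Age8 vs Ctrl (SE 0.197, edgeR adjusted p = 0.00955) and rose by 1.09 in Age12 vs Age8 (SE 0.197, edgeR adjusted p = 0.0121). The rise was not called without Age12 replicate 2 or 3 (edgeR adjusted p = 0.0579 and 0.0618). The fall was not called with the muscle score, a fit that called 0 class I genes in Age8 vs Ctrl. The Q and T genes are near copies of each other and of H2-K1 and H2-D1, and only uniquely mapped reads were counted, so the split of reads among them is uncertain. The other class I genes tested were called in no comparison. H2-M9, H2-M2, H2-M11, H2-M6-ps, H2-M10 and H2-T3 were too low to be tested, with 1 to 75 counts over the 9 libraries.

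Ratios within a library do not depend on the scaling between libraries. They were chosen after the values had been seen and are given without a test. Dividing the summed FPKM of H2-Aa, H2-Ab1, H2-Eb1 and Cd74 by that of H2-K1, H2-D1 and B2m gave 0.408, 0.502 and 0.426 for Ctrl, 0.272, 0.208 and 0.238 in Age8, and 0.242, 0.248 and 0.254 in Age12. The highest aged library was thus below the lowest Ctrl library, and Age8 and Age12 overlapped. As a share of all counts the 4 class II genes took 0.0454% to 0.0626% in Ctrl, 0.0196% to 0.0212% in Age8 and 0.0213% to 0.0239% in Age12. The 3 class I genes took 0.0776% to 0.114%, 0.0567% to 0.0727% and 0.0630% to 0.0714%.

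Within class II, Cd74 over H2-Ab1 (FPKM, mean ± SD, n = 3) averaged 5.11 ± 0.404 for Ctrl, 5.10 ± 0.153 for Age8 and 5.24 ± 0.536 for Age12. H2-Aa over H2-Ab1 was 0.680 ± 0.0328, 0.709 ± 0.0348 and 0.779 ± 0.0590, and its 3 Age12 libraries (0.728 to 0.844) lay above the 3 Ctrl libraries (0.643 to 0.707). Over the 9 libraries, Pearson's r between the log2 CPM of these 4 genes ranged from 0.986 to 0.995, in libraries that share depth and tissue makeup. Of B2m over H2-K1 and H2-D1 the ratio was 1.61 ± 0.343, 1.96 ± 0.334 and 1.89 ± 0.178.

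**Figure D4:**
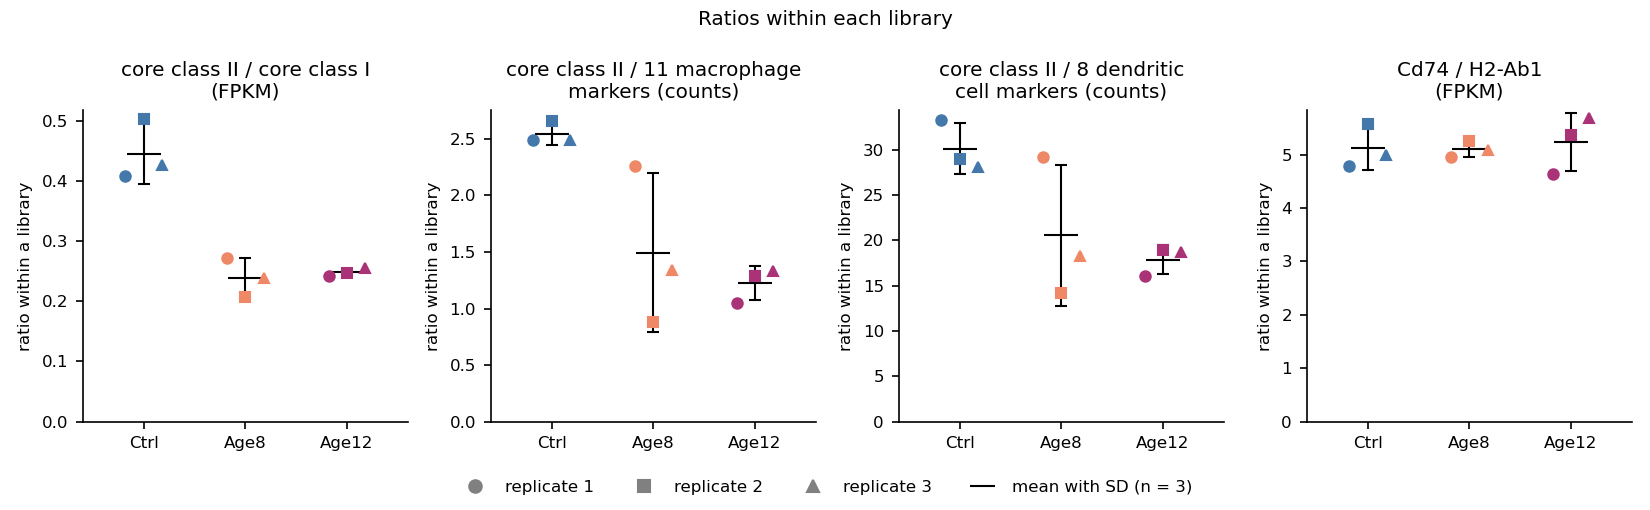
Ratio within each library of summed class II genes (H2-Aa, H2-Ab1, H2-Eb1, Cd74) to summed class I genes (H2-K1, H2-D1, B2m), to 11 macrophage markers and to 8 dendritic cell markers (without Flt3 and Zbtb46), and of Cd74 to H2-Ab1, by group. Symbols are libraries and the black bar is the mean with its SD (n = 3). The first 2 ratios are lower in all 6 aged libraries than in the 3 Ctrl libraries, and the last lies between 4.65 and 5.69 in every group.

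Among marker lists of the cells that carry class II, 11 macrophage markers summed to 167 to 227 CPM in Ctrl, 146 to 230 in Age8 and 155 to 165 in Age12. The Age12 libraries lay below the Ctrl libraries in this sum. It is over 11 of the 12 markers of the list. The order of Age8 and Ctrl, and whether Age12 overlaps Ctrl, depend on the one left out. Of these, Cd68 and Mrc1 were lower in Age12 vs Ctrl and 0 were higher. The 4 class II genes divided by this sum gave 2.49, 2.66 and 2.49 in Ctrl, 2.26, 0.878 and 1.34 in Age8, and 1.05, 1.29 and 1.33 in Age12. The aged libraries lay below Ctrl with or without the marker left out, but the distance of Age8 replicate 1 from Ctrl depends on it.

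The 10 dendritic cell markers summed to 29.8 to 47.7 CPM in Ctrl, 20.1 to 35.2 in Age8 and 46.3 to 49.2 in Age12, mostly from Flt3 and Zbtb46 in Age12. The other 8, a split made after the values were seen, summed to 15.3 to 17.7, 11.3 to 14.2 and 10.6 to 11.1 CPM, lower in every aged library than in Ctrl. Of the 9 tested, 0 passed in Age8 vs Ctrl (median log2 fold change -0.49). In Age12 vs Ctrl Xcr1, Cd209a and Clec10a were lower (median -0.93), while 4 of the 9 had log2 fold changes above 0. The ratio of class II to the 10 markers was 9.32 to 18.97 in Ctrl, 5.74 to 16.4 in Age8 and 3.52 to 4.39 in Age12. Over the 8 markers it overlapped between Ctrl (28.1 to 33.3) and Age8 (14.2 to 29.2) and was 16.04 to 18.9 in Age12. B cell markers summed to 39.2 to 54.1 CPM in Ctrl, 110 to 241 in Age8 and 55.4 to 58.6 in Age12, and 1 of 11, Ighm, was higher in Age8 vs Ctrl. Ighm made up 83.8 to 230 CPM of the Age8 sums, and without it the sums were 7.27 to 18.5 CPM in Ctrl, 11.1 to 26.4 in Age8 and 10.7 to 11.5 in Age12, with overlap between all groups.

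The 7 pan-leukocyte markers summed to 140 to 152 CPM in Ctrl, 76.5 to 206 in Age8 and 88.4 to 99.8 in Age12, with 2 lower in Age12 vs Ctrl (Cd52 and Lcp1) and 0 called in Age8 vs Ctrl. Class II divided by this sum gave 4.03, 2.93 and 3.47 in Ctrl, 4.32, 0.982 and 1.63 in Age8, and 1.96, 2.01 and 2.18 in Age12, so that Age8 replicate 1 lay above Ctrl and the other aged libraries below it. Of 10 T cell markers tested 0 were called in any comparison, at 5.44 to 12.99 CPM summed. In Age8 vs Ctrl 3 of 6 plasma cell and 4 of 10 marrow neutrophil markers were higher. Without Ltf, which had 5932 to 6423 CPM in Ctrl and 161 to 4288 in Age8, the neutrophil markers summed to 72.8 to 358 CPM in Ctrl, 213 to 1570 in Age8 and 103 to 108 in Age12. From Age8 to Age12 3 plasma cell, 9 neutrophil, 1 of 3 NK cell, 2 of 7 pan-leukocyte (Ptprc, -1.50, and Cd52, -1.52) and 2 of 11 B cell markers (Ighm, -1.71, and Ms4a1, -2.13) were lower. The median of the B cell markers in that comparison was -1.05. The part of these cells in the class II values was not tested.

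Cochlear markers were present, with Otof, a hair cell gene chosen after its values were seen, at 0.06 CPM in Age8 replicate 1 and up to 12.7 in the other libraries. Hair cell and stria vascularis lists had 0 genes called in any comparison. Among supporting cell markers only Sox2 was called, lower in both aged groups than in Ctrl and higher in Age12 than in Age8. Of 14 skeletal muscle markers 9 were higher in Age8 vs Ctrl and 2 lower in Age12 vs Age8. Of 13 gland markers tested 5 were lower and 1 higher in Age8 vs Ctrl, and 4 lower and 1 higher in Age12 vs Ctrl.

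**Figure D5:**
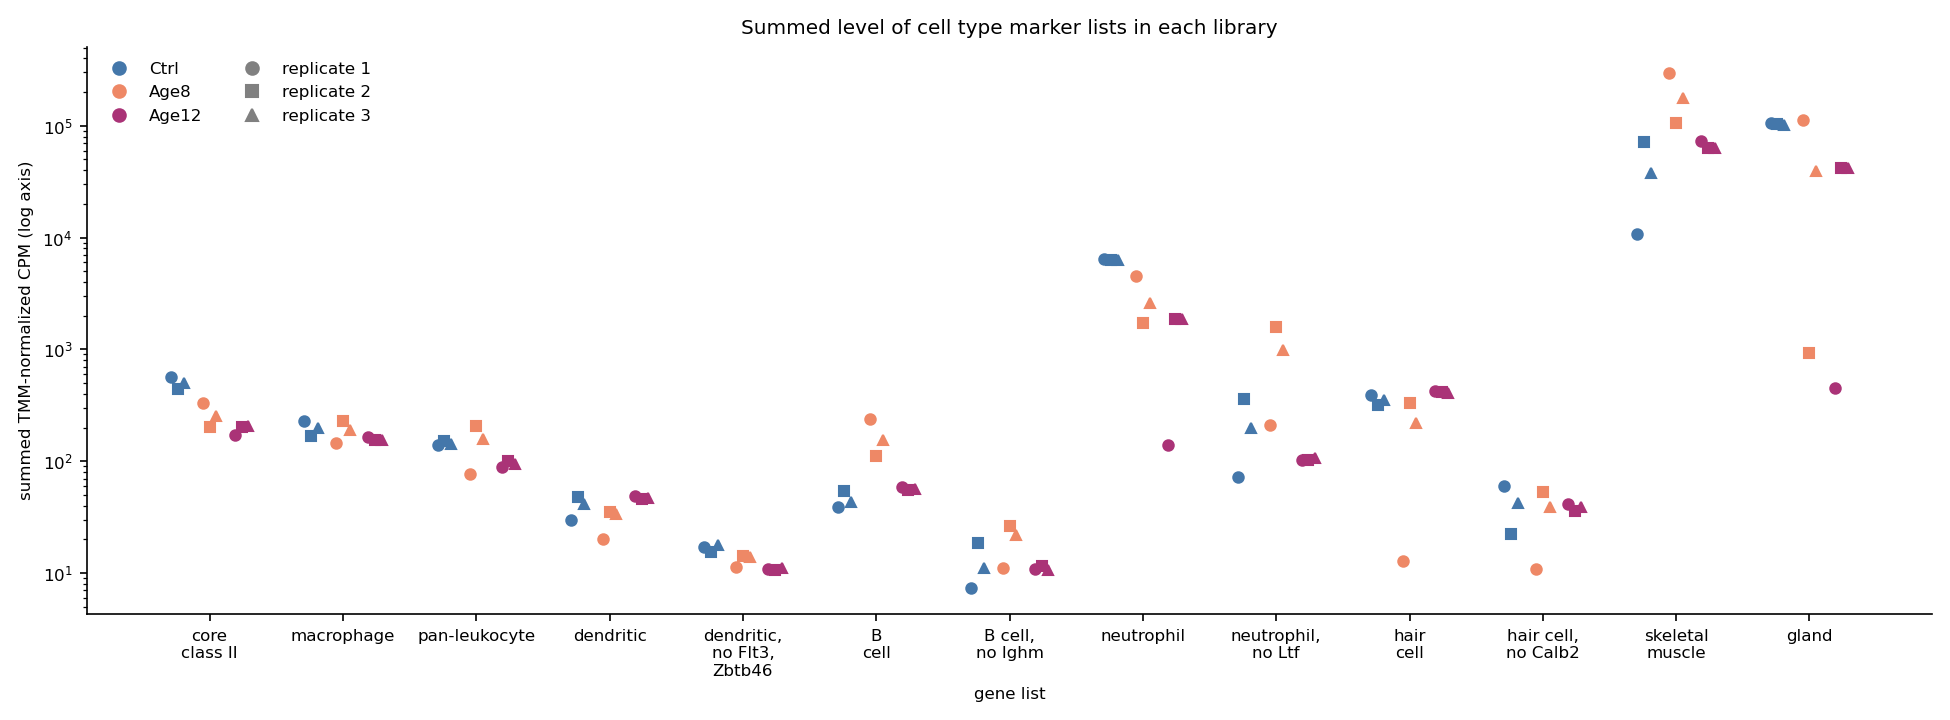
Summed TMM-normalized CPM (log axis) of the 4 class II genes and of 8 marker lists in each library, for 4 lists also without the genes named. Colours are groups and symbols replicates. The class II sum is lower in every aged library than in Ctrl. The macrophage sum, over 11 of its 12 markers, is below Ctrl in the Age12 libraries and overlaps Ctrl in Age8. Age8 replicate 1 is low for hair cell and high for muscle markers.

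The rest of the class II pathway was called in both directions. Of 11 genes, Ifi30, a lysosomal reductase for antigens, and Rfx5, a subunit of the factor that binds the X box, were lower in Age8 vs Ctrl (log2 fold changes of -0.54 and -0.74, edgeR adjusted p = 0.0485 and 0.00914). Ifi30 (-1.40), Cd80 (-1.76) and Cd86 (-1.30), the last 2 costimulatory ligands, were lower in Age12 vs Ctrl, and 0 were higher. Against Age8, in Age12 Ifi30 (-0.86) and Cd80 (-1.76) were lower, and the protease Lgmn (0.58) and Rfx5 (0.82) higher. Ifi30 thus went from 32.2 to 42.3 CPM in Ctrl to 22.2 to 27.6 in Age8 and 11.3 to 16.1 in Age12, with no overlap, while Rfx5 was low in Age8 alone (6.08 to 7.69 CPM against 10.8 to 13.3 in Ctrl and 11.9 to 12.98 in Age12). The other abundant proteases, Ctsl (174 to 253 CPM) and Ctss (25.6 to 65.8), were not called.

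Of the 13 genes of peptide supply and class I assembly, 2 were lower in Age8 vs Ctrl, Pdia3 (-0.61) and the transporter subunit Tap2 (-0.33). In Age12 vs Ctrl 4 were lower, Pdia3 (-0.96), the chaperone Calr (-0.69), Tap1 (-0.62) and Tapbp (-0.46), and 0 higher. In Age12 vs Age8 Calr (-0.66) and the trimming peptidase Erap1 (-0.58) were lower. Shares of all genes called lower in these 3 comparisons were 13%, 11.2% and 14%. The median of the list was -0.55 in Age12 vs Ctrl, beside -0.006 for all genes. The immunoproteasome subunits Psmb8, Psmb9 and Psmb10 were called in no comparison.

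In interferon gamma signalling, which induces Ciita and Nlrc5 in many cells, Ifng itself had at most 3 counts in every library. Of 9 genes tested, Jak1 (0.43) and Jak2 (0.95) were higher and Irf1 (-0.74) lower in Age8 vs Ctrl. The factors Irf1 (-0.94) and Irf8 (-0.81) and the receptor chain Ifngr1 (-1.07) were lower in Age12 vs Ctrl, and Ifngr1 (-0.96), Ifngr2 (-0.92) and Jak2 (-0.64) in Age12 vs Age8. Irf1 had 18.9 to 23.9 CPM in Ctrl, 11.8 to 13.2 in Age8 and 9.05 to 12.3 in Age12. Among all genes, 15.4% were higher and 13% lower in Age8 vs Ctrl, 11.2% lower in Age12 vs Ctrl and 14% lower in Age12 vs Age8.

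Interferon response genes were not called lower. Of 23 tested, Igtp (1.11) and Irgm1 (0.83) were higher in Age8 vs Ctrl and Igtp (0.86) in Age12 vs Ctrl, 0 were lower in any comparison, and 0 were called in Age12 vs Age8. The most abundant, Ifit1, Ifit3 and Stat2, were called in no comparison, Ifit1 with 26.8 to 29.2 CPM in Ctrl, 9.78 to 77.8 in Age8 and 47.5 to 52.8 in Age12.

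The genes whose pattern over the 9 libraries was most like that of the 4 class II genes were searched among 15976 genes of at least 1 CPM. The 10 closest, with Pearson's r of the log2 CPM from 0.992 to 0.995, were Spag17, Hs3st3b1, Dnah1, Slc39a8, Ctnna1, Pam, Bgn, Saxo2, Arf4 and Dsg2. Spag17, Dnah1 and Saxo2 encode parts of the axoneme of cilia, Bgn a matrix proteoglycan, and Ctnna1 and Dsg2 junction proteins. Spag17, the closest, had means of 4.00, 1.16 and 0.50 CPM in Ctrl, Age8 and Age12, and Bgn 422, 184 and 126. For H2-K1, H2-D1 and B2m the closest were Anxa4, Lims2, Cyp4b1, Mmp3, Lamp2, Sorbs3, Ltbr, Zfp217, Cavin1 and Cdca7l (r from 0.981 to 0.993). Anxa4 had means of 50.3, 45.1 and 23.6 CPM. The 9 libraries form 3 groups and share depth and tissue makeup, so these values of r only describe likeness.

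Genes lying among the H2 genes that are no members were called in both directions. Of 108 such genes tested between 34193607 and 36501179 of chromosome 17, 17 were lower and 16 higher in Age8 vs Ctrl, 10 lower and 3 higher in Age12 vs Ctrl, and 8 lower and 11 higher in Age12 vs Age8, or 30.6%, 12.04% and 17.6% in all. Their medians were -0.12, -0.10 and -0.14 on the log2 scale, beside -0.117, -0.006 and -0.077 for all genes.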

How the data were processed

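Poly-A RNA of 9 cochlear libraries was sequenced with directional kits as 150 nt read pairs. Reads were trimmed (FASTX-Toolkit) and aligned to GRCm39 (HISAT2) by the authors, who deposited raw counts of uniquely mapped reads per gene, and FPKM made from them by the authors. The counter, the annotation release and the use of the strand are not given in the sources used here. The authors' tool for differential expression was DESeq2, per the labels.

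The counts were filtered with filterByExpr, scaled with TMM factors and fitted over all 9 libraries with edgeR 4.0.16 (quasi-likelihood test, R 4.3.3), with p-values adjusted after Benjamini and Hochberg over all 19254 genes tested and called at 0.05. The scripts were tested on simulated data. DESeq2 1.42.0, other scalings and filters, a replicate block, covariates, libraries left out and limma 3.58.1 on log2(FPKM + 1) and log2(FPKM + 0.1) were alternatives. Library totals without TMM were added after seeing the data. CPM are TMM-normalized. Depth was 26473126 to 37935875 counts per library. The 3 comparisons share libraries.

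The members and lists were chosen with earlier results of these data known. Values per library are given for members of at least 5 mean FPKM, for Ciita and Nlrc5, and for members that were called. From other lists, genes called or most abundant are named, and the marker lists mostly by counts and sums. The result of 1 marker gene is not reported here, and it was left out of the macrophage sums. Sums without Flt3, Zbtb46, Ighm, Ltf or Calb2 and the closeness of replicates were added after seeing the data. The 10 genes most alike had a mean of at least 1 CPM. GENCODE M39 held 31736 of the 32066 gene identifiers. No domain or protein sequence was used here. Python 3.11.15, numpy 2.4.6, pandas 2.3.3 and matplotlib 3.10.9 were used.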

Additional observations from a re-analysis of the deposited data

How the results depend on the processing

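Most alternatives changed 1 choice, but limma on FPKM also changed the values, scaling and filter (32007 genes tested), and DESeq2 the scaling and filter (20875 to 22740). There were 1310 alternative values of single genes. Of these, 1032 kept direction and side of the threshold, 160 lost the call, 35 gained one and 83 changed sign. Of the 83, 0 were values of a gene in a comparison where it was called in the analysis as reported. Genes called only in another comparison did change sign, among them Cd74 and H2-Ab1 in Age12 vs Age8. The cause was not tested.

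The number of class II genes called in Age8 vs Ctrl (5) was 2 with only the 6 libraries compared, and 0 with the muscle score, the gland score or libraries 1 and 2 alone (edgeR, with 2, 5 and 4 genes at an unadjusted p under 0.05). In Age12 vs Ctrl (7) it was 4 with the replicate block, and 0 with the gland score or libraries 1 and 2 (6 and 6 genes unadjusted). In Age12 vs Age8 (2) it was 1 with RLE factors, without a filter, with a minimum of 10 counts per library, with the 6 libraries compared alone, the block or the gland score, and 0 with limma on log2(FPKM + 1) and log2(FPKM + 0.1), the muscle score, libraries 1 and 2, and library totals (1, 0, 2, 2 and 1 genes unadjusted). Leaving out 1 library gave 0 to 6, 5 to 7 and 0 to 3.

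The number of class I genes called in Age8 vs Ctrl (2) was 1 with only the 6 libraries, the block or the gland score, 4 on both FPKM scales, 5 with library totals, and 0 with the muscle score or libraries 1 and 2 (4 and 1 unadjusted, edgeR). In Age12 vs Ctrl (4) it was 7 with only the 6 libraries, 2 with the block or the muscle score, and 0 with the gland score or libraries 1 and 2 (1 and 3 unadjusted). In Age12 vs Age8 (4) it was 7 with DESeq2, 2 with at least 10 counts or the muscle score, and 0 with libraries 1 and 2 (1 unadjusted). Leaving out 1 library gave 1 to 5, 1 to 7 and 0 to 6.

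Values that changed sign in Age8 vs Ctrl were those of B2m (-0.032 with upper-quartile factors, -0.047 without a filter, -0.038 with at least 10 counts, -0.33 on both FPKM scales, -0.042 with the gland score, -0.40 with library totals), of H2-D1 (0.041), H2-K1 (0.14) and H2-Ob (0.18) with the gland score, and of H2-T23 (0.089), H2-Q4 (0.44), Nlrc5 (0.37) and H2-T22 (0.31) with the muscle score. H2-T22 was 0.016 with DESeq2, 0.015 with RLE factors and 0.045 with libraries 1 and 2. H2-Q1 was -0.0068 and -0.095 on the FPKM scales, -0.58 with the gland score, -0.054 with libraries 1 and 2 and -0.046 with library totals, and H2-DMb2 was -0.022 on log2(FPKM + 0.1). In Age12 vs Ctrl H2-T22 was -0.036 with upper-quartile factors, -0.073 with the gland score and -0.017 with libraries 1 and 2, and H2-Q4 was 0.039 with the muscle score.

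In Age12 vs Age8, log2(FPKM + 1), log2(FPKM + 0.1) and library totals gave 0.045, 0.045 and 0.045 for B2m, 0.24, 0.25 and 0.27 for H2-D1, 0.26, 0.28 and 0.24 for H2-T23, 0.40, 0.45 and 0.46 for H2-Q4, 0.087, 0.088 and 0.12 for Cd74, 0.21, 0.22 and 0.24 for H2-Eb1, 0.050, 0.054 and 0.081 for H2-Ab1, 0.17, 0.19 and 0.22 for H2-Aa and 0.34, 0.42 and 0.42 for H2-DMb1. H2-T22 was -0.16 with the muscle score and -0.062 with libraries 1 and 2, and Nlrc5 was -0.0035 with upper-quartile factors, -0.00095 with the replicate block, -0.54 with the muscle score, -0.033 with the gland score and -0.016 with libraries 1 and 2.

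With 1 library left out, sign changes came within -0.25 to 0.16 for B2m, -0.16 to 0.097 for H2-T22, -0.40 to 0.015 for H2-Q4, -0.035 to 0.70 for H2-Q1 and -0.023 to 0.74 for H2-DMb2 in Age8 vs Ctrl, -0.100 to 0.069 for H2-T22 and -0.015 to 0.20 for H2-K2 in Age12 vs Ctrl, and -0.087 to 0.094 for H2-T22, -0.19 to 0.016 for H2-Q4 and -0.063 to 0.055 for Nlrc5 in Age12 vs Age8.

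Replicate numbers did not pair the libraries: deviations of same-numbered libraries correlated at -0.357 to 0.182, so the block counts above are given for completeness. H2-Oa and H2-Bl had few counts, so small changes of theirs were not detectable at this depth.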
